A study of Lens culinaris with 20 samples.

Results

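miR399 and miR395 are the microRNA families of phosphate and sulfate nutrition, and they are described here for lentil, Lens culinaris, across 7 tissues. Members were taken by name: every entry of the deposited miRNA table whose name carries the number of miR395 or miR399 was kept, apart from entries named lcum- or PC-, and entries with the same mature sequence counted as 1 member. This gave 19 members, 10 of miR399 and 9 of miR395, from 28 entries, out of 1464 distinct sequences in 1642 entries. Small RNA was sequenced from stem, flowers, young pods, flower buds, mature leaves, shoots and roots. There were 3 libraries of each tissue except flowers, with 2, which made 20. The RNA came from pooled samples, per the labels' protocols, and the labels give no cultivar, plant age or nutrient supply. Nor do they say whether a tissue's libraries are separate plants or pools, so p-values speak only of the spread among the libraries at hand, part or all of which may be technical.

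In Arabidopsis, miR399 is made when phosphate is short, moves in the phloem and cuts the transcript of PHO2, a ubiquitin-conjugating enzyme that removes phosphate transporters. miR395 is made when sulfate is short and cuts transcripts of ATP sulfurylases, the first enzymes of sulfate assimilation, and of a low-affinity sulfate transporter. A plant miRNA is cut from a hairpin precursor as a duplex of a 5′-arm and a 3′-arm strand. In both families the 3′ strand is the one known to guide target cutting.

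The 3′-arm members of miR399 are shown first because 2 of them carried most of the family's reads. Sequences are as the table gives them, written with T, with the seed (bases 2 to 8) in capitals, and names carry the species prefix of a known miRNA (ath, Arabidopsis; mtr, Medicago truncatula; zma, maize; bdi, Brachypodium distachyon).
ath-miR399b: tGCCAAAGgagagttgccctg
mtr-miR399b: tGCCAAAGgagagctgccctg
mtr-miR399a: tGCCAAAGgagatttgcccag
mtr-miR399k: tGCCAAAGaagatttgccctg
mtr-miR399r: tGCCAAAGaagatttgccccg
ath-miR399b_L-2R+2: cCAAAGGAgagttgccctgtt
The first 5 shared the seed GCCAAAG. Counted from 1 at the 5′ end of ath-miR399b, mtr-miR399b differed by T14C, mtr-miR399a by G13T and T20A, mtr-miR399k by G9A and G13T, and mtr-miR399r by G9A, G13T and T20C. The form ath-miR399b_L-2R+2 was ath-miR399b moved along its precursor, and so had another seed.

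The 5′-arm members of miR399 had 4 different seeds, and are shown because their share of the reads differed between tissues.
mtr-MIR399j-p5_1ss15TC: gGGCAATGacttctctggcagt
mtr-MIR399j-p5_1ss8GA: gGGCAATAacttctttggcagt
zma-miR399e-5p: gGGCTTCTctttcttggcagg
mtr-miR399s-5p_1ss13CT: gGGTGAGTtctctattggcagg

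For miR395, the most abundant 3′ form and other 3′-arm forms, which differ in start, end or last base, are shown with the 5′-arm members.
mtr-miR395a_L-1R+1: tGAAGTGTttgggggaactct
ath-miR395a_L-1R+1: tGAAGTGTttgggggaactca
mtr-miR395a_L-1R+2: tGAAGTGTttgggggaactctt
bdi-miR395a_L+1: aTGAAGTGtttgggggaactc
mtr-MIR395g-p5_1ss13CT: aGTTCCTCtgaatgcttcata
mtr-MIR395o-p5: aGTTCCTCtgaactcttcatc
mtr-MIR395l-p5: aGTTCCTTtgaacgcttcatg
The remaining members, ath-miR395a_L-1R-1 and ath-miR395a_L-1R-2, were the same sequence as mtr-miR395a_L-1R+1 ended at 19 and 18 nt. Of the 6 3′-arm members, 5 began at the same base and shared the seed GAAGTGT, while bdi-miR395a_L+1 began 1 base earlier.

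All 19 members lay without a mismatch in at least 1 of the precursors listed for their family, 10 for miR399 (93 to 116 nt) and 11 for miR395 (57 to 118 nt). Members of both arms were held by 3 miR399 and 8 miR395 precursors, and a folding prediction with RNAfold gave minimum free energies from -51.7 to -32.5 kcal/mol for miR399 and from -52.3 to -18.9 kcal/mol for miR395. A miR399 precursor, a miR399j/r precursor and a miR395 precursor are printed with every member they hold in capitals, to show how the arms lie.
precursor of zma-miR399e-5p and ath-miR399b: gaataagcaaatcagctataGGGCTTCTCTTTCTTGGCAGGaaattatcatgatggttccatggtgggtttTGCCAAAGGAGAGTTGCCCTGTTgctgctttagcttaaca
precursor of mtr-MIR399j-p5_1ss15TC and mtr-miR399r: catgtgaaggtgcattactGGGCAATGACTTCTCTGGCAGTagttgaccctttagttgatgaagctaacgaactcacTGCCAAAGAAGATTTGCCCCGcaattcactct
precursor of mtr-MIR395g-p5_1ss13CT and mtr-miR395a_L-1R+1: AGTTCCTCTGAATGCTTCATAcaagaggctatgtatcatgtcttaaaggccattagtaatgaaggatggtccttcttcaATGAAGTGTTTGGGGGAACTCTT
These are the 111 nt, 109 nt and 102 nt precursors of the list. In the second, mtr-MIR399j-p5_1ss15TC occupied bases 20 to 41 and mtr-miR399r bases 78 to 98. A second listed precursor, of 105 nt, held the same pair. Positions in the lentil genome were not looked up, for want of a genome here.

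Levels are CPM, the reads per 1000000 scaled to a library total adjusted by the trimmed mean of M-values (TMM). Library totals are the reads of the kept miRNA entries, not all reads sequenced, and ran from 72853 to 997119. The listed 0 of this table stands for fewer than about 5 reads, which was 4.01 to 60.8 CPM depending on the library. The limits were 26.8 to 40.4 CPM in roots, 16.8 to 44.1 CPM in shoots and 18.5 to 60.8 CPM in mature leaves. A 0 there mostly bounds a level less tightly than a 0 in stem (8.60 to 20.4 CPM). The lowest scaling factor was that of mature leaves 1, at 0.509, and it was 0.762 and 0.658 by other forms of TMM, so every CPM of that library is less sure. A bulk level cannot tell fewer cells making a miRNA from less miRNA per cell.

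By mean, miR399 was highest in stem, lower in mature leaves and flowers, lower again in young pods and flower buds, and at or near the limit in shoots and roots. The family sum was 1546, 2108 and 2562 CPM in the 3 stem libraries, 463 and 658 CPM in flowers, and 173, 268 and 73.6 CPM in young pods. Flower buds had 175, 197 and 129 CPM. The sum was 1088, 499 and 523 CPM in mature leaves, 0, 0 and 16.8 CPM in shoots, and 91.8, 0 and 42.9 CPM in roots. Each stem library lay above every library of the other 6 tissues, and each shoot and root library lay under every stem, flower and mature leaf library. Family means were 2072 ± 509 CPM in stem, 560 ± 138 CPM in flowers (n = 2), 172 ± 97.4 CPM in young pods, 167 ± 34.6 CPM in flower buds, 703 ± 333 CPM in mature leaves, 5.59 ± 9.68 CPM in shoots and 44.9 ± 46.0 CPM in roots (SD, n = 3 unless given). Without mature leaves 1 the mean of that tissue was 511 CPM, and without shoots 3 that of shoots was 0.

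**Figure D1:**
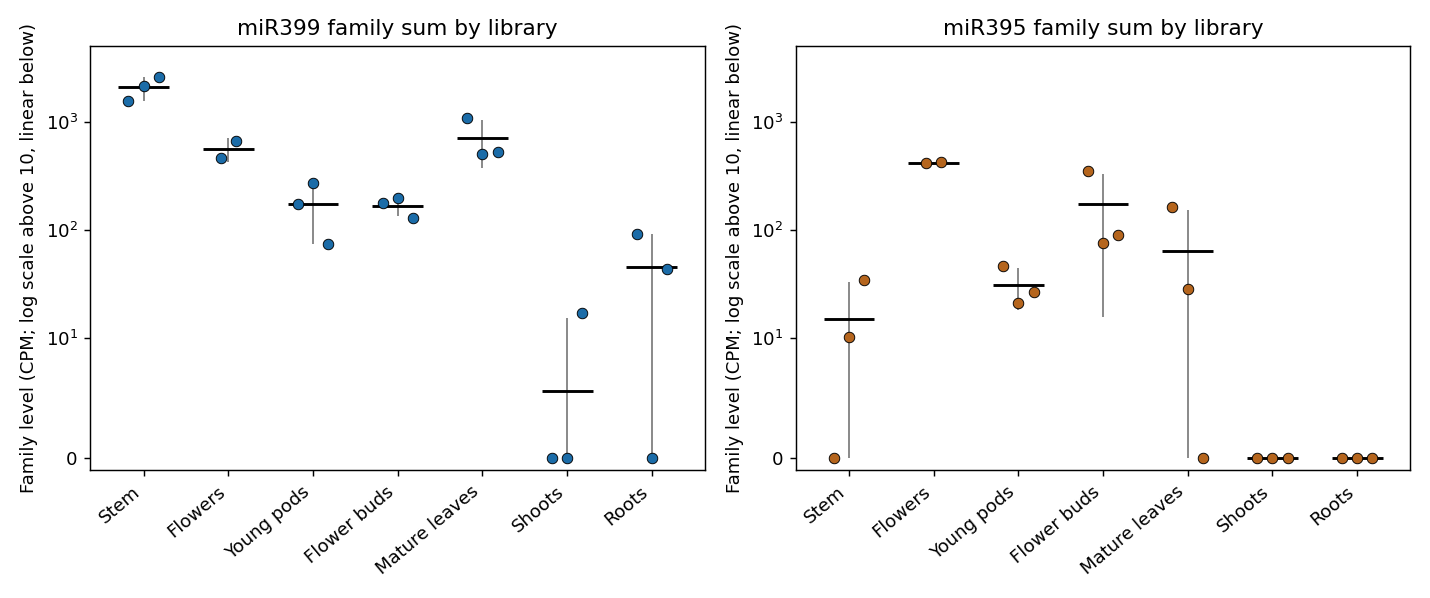
Family sums of miR399 (left) and miR395 (right) in CPM by tissue, on an axis that is logarithmic above 10 CPM and linear below. Points are libraries (2 for flowers, 3 for each other tissue), horizontal bars are means and grey lines are 1 SD, drawn no lower than 0. The stem libraries of miR399 sit between 1546 and 2562 CPM, above all others, whereas miR395 is highest in flowers, at 410 and 419 CPM, and at 0 in shoots and roots.

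Both families differed over the 7 tissues in edgeR's quasi-likelihood F-test with Benjamini-Hochberg adjustment, with adjusted p = 2.00e-07 for miR399 and 7.77e-05 for miR395. Such a call was the rule here, since 46 of 54 families tested passed (85.2%). Of the 21 pairs of tissues, miR399 passed in 15 and miR395 in 11 (adjusted p under 0.05 with a log2 fold change of 1 or more, up or down). Over all families and pairs 41.9% passed.

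miR399 in stem was above that in roots by a log2 fold change of 5.51 ± 0.87 (SE, adjusted p = 6.56e-06), in a comparison where 37% of families were higher in stem. It was above that in shoots by 7.96 (adjusted p = 1.12e-06), where 24.1% of families were higher in stem. The root libraries held only 12, 0 and 8 reads of miR399 and the shoot libraries 0, 0 and 5, so the size of both differences is uncertain. With 1 library left out they ran from 4.96 to 6.49 over roots and from 7.51 to 12.4 over shoots. The difference of stem over flower buds was 3.63 (adjusted p = 5.10e-04), with 29.6% of families higher in stem, and that over young pods 3.58 (adjusted p = 5.90e-04), with 20.4%. Stem over flowers, at 1.88 (adjusted p = 0.0600), and stem over mature leaves, at 1.55 ± 0.71 (adjusted p = 0.103), did not pass, although no library of the groups overlapped. The value over mature leaves passed in 14 of 50 alternatives, among them DESeq2 (1.63, adjusted p = 0.00998) and library size alone (1.74, adjusted p = 0.0482), but not with DESeq2's size factors in edgeR. Ranked by mean, the neighbours stem and mature leaves, flowers and mature leaves, flowers and young pods, and young pods and flower buds did not pass. The libraries of flowers and young pods did not overlap either. Flower buds (-2.08, adjusted p = 0.0183) and young pods (-2.03, adjusted p = 0.0244) were under mature leaves, calls lost in 13 and 23 of 50 alternatives. Flowers over flower buds (1.75, adjusted p = 0.132) and over young pods (1.69, adjusted p = 0.127) did not pass. Flower buds exceeded roots by 1.88 (adjusted p = 0.0404; 38.9% of families were higher in buds), a call lost in 17 of 50 alternatives, with 1.33 (adjusted p = 0.138) without roots 2. For shoots over roots the value was -2.45 (adjusted p = 0.0458; 29.6% of families were lower in shoots), with only 5 reads in 1 of the shoot libraries, and the call was lost in 21 of 50, with -1.54 (adjusted p = 0.274) without roots 1.

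The 2 main members of miR399, which differ by 1 base at position 14 of the mature sequence, made up most of the family. ath-miR399b carried 41.8% and mtr-miR399b 30.1% of its 5083 reads. ath-miR399b had 560, 866 and 1154 CPM in stem, 216 and 331 CPM in flowers, 140, 156 and 47.3 CPM in young pods, 90.1, 79.2 and 40.6 CPM in flower buds, 581, 207 and 268 CPM in mature leaves, 0, 0 and 16.8 CPM in shoots, and 91.8, 0 and 42.9 CPM in roots. It was the only member of either family listed in any shoot or root library. The stem and mature leaf ranges of ath-miR399b overlapped, and the log2 fold change of 1.27 ± 0.79 for stem over mature leaves did not pass (adjusted p = 0.271).

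mtr-miR399b had 572, 835 and 858 CPM in stem, 194 and 194 CPM in flowers, 22.8, 91.2 and 26.3 CPM in young pods, 61.6, 52.0 and 35.8 CPM in flower buds, and 244, 104 and 97.3 CPM in mature leaves. It was listed at 0 in all shoot and root libraries. Its stem libraries stood apart from all others, and stem exceeded mature leaves by 2.32 ± 0.65 (adjusted p = 0.0166), where 11.8% of the sequences tested were higher in stem. That call was lost in 6 of 50 alternatives, with adjusted p of 0.0745 without mature leaves 2, 0.0639 without mature leaves 3, 0.0521 without stem 3 where scaling factors were re-estimated, and 0.161 with no filter on low counts. Whether this difference between stem and mature leaves was larger for mtr-miR399b than for ath-miR399b was asked by the share of mtr-miR399b in the reads of both, which was 50.6, 49.1 and 42.6% in stem and 29.7, 33.3 and 26.7% in mature leaves. This share was chosen after the values were seen. The shares in stem lay above those in mature leaves without overlap, but with 3 libraries against 3 no exact permutation test can go under 0.10, and no test was made. Against 5 reads per library, mtr-miR399b was at least 24.0-fold higher in stem than in shoots and at least 21.5-fold higher in stem than in roots.

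**Figure D2:**
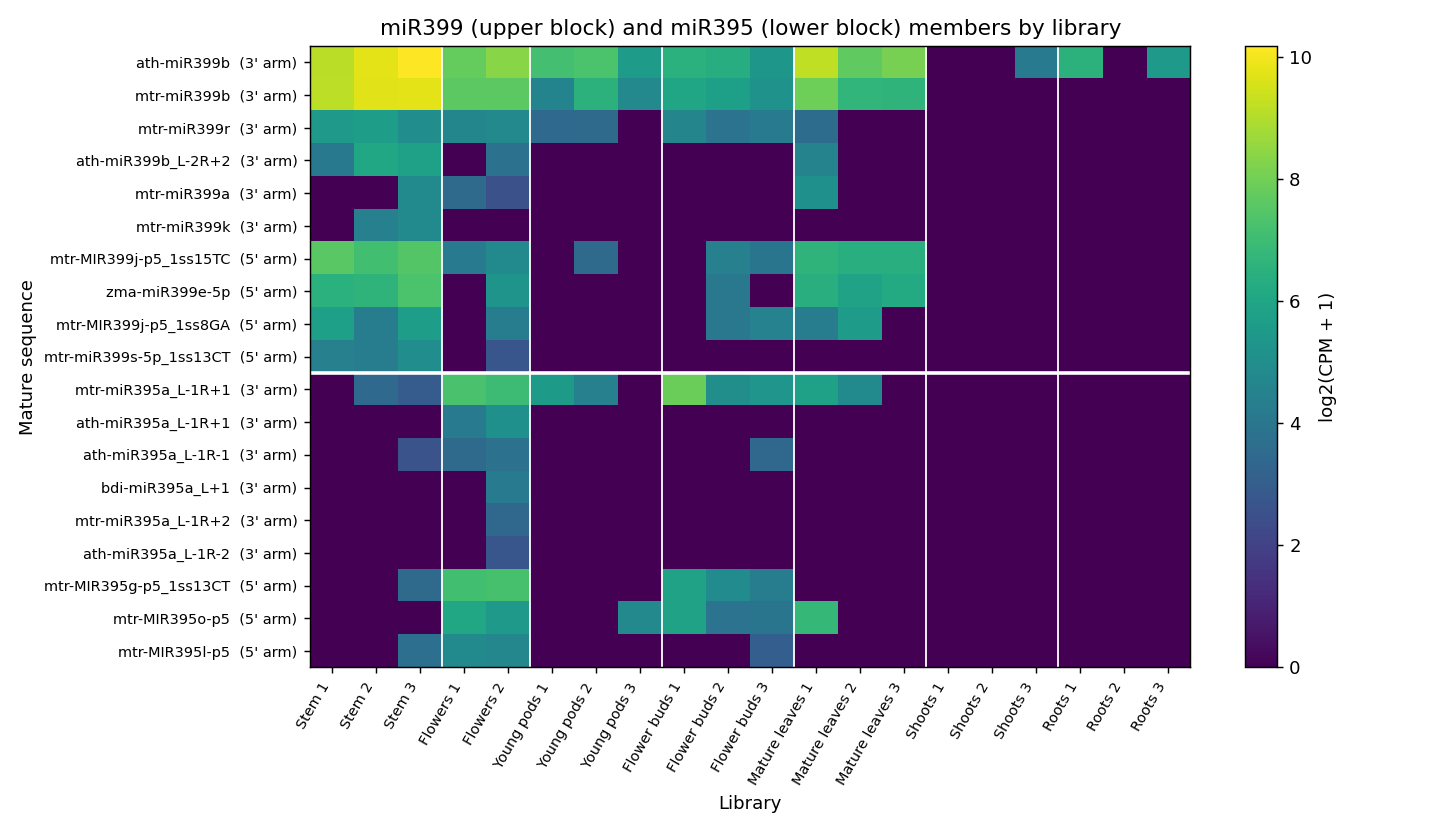
Levels of the 19 members as log2(CPM + 1) in the 20 libraries, miR399 above and miR395 below the thick white line, with the arm of each member in brackets and tissues parted by thin lines. A value of 0 (darkest) stands for fewer than about 5 reads. ath-miR399b is the only member above 0 in shoots or roots, and 3 miR395 forms are above 0 in flowers 2 alone.

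The other 3′-arm members of miR399 were rare. mtr-miR399r had 45.0, 50.9 and 31.0 CPM in stem, 24.7 and 26.5 CPM in flowers, 10.1, 10.4 and 0 CPM in young pods, 23.7, 13.6 and 16.7 CPM in flower buds, and 11.1, 0 and 0 CPM in mature leaves. The shifted form ath-miR399b_L-2R+2 was listed in all 3 stem libraries (16.4, 67.2 and 55.0 CPM), flowers 2 and mature leaves 1. mtr-miR399a reached 33.3 CPM in mature leaves 1 and was listed in 4 libraries, and mtr-miR399k in stem 2 and stem 3 only, at 20.4 and 27.5 CPM.

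The 5′-arm members of miR399 were found mostly in stem and mature leaves. mtr-MIR399j-p5_1ss15TC had 188, 134 and 172 CPM in stem, 17.7 and 27.3 CPM in flowers, 0, 10.4 and 0 CPM in young pods, 0, 20.4 and 14.3 CPM in flower buds, and 96.2, 84.7 and 85.1 CPM in mature leaves. Every stem library of this member was above every mature leaf library, and all 6 were above every flower, bud and pod library. Stem exceeded young pods by 5.30 ± 1.37 (adjusted p = 0.0116; 13% of sequences were higher in stem), or 4.52 (adjusted p = 0.0616) without young pods 1 where scaling factors were re-estimated. The young pod level rests on young pods 2 alone, with 8 reads over both entries, of which the fit kept only a part. The size of this difference is therefore uncertain. zma-miR399e-5p, from the opposite arm of a precursor of ath-miR399b, had 90.0, 97.8 and 155 CPM in stem, 0 and 37.7 CPM in flowers, 15.8 CPM in flower buds 2 and 81.4, 56.5 and 73.0 CPM in mature leaves. It was at 0 in all young pods, at least 6.59-fold under stem. mtr-MIR399j-p5_1ss8GA (18.3 to 53.2 CPM in stem) and mtr-miR399s-5p_1ss13CT (18.3 to 31.0 CPM in stem) were lower.

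The filter on low counts passed 5 miR399 and 3 miR395 members, and all 8 were called over the 7 tissues, as were 74.3% of the 323 sequences tested. A member that passed the filter only through its high tissue was likely to differ, so this count carries no weight. The counts of pairs that follow share this limit. Of the 21 pairs of tissues, mtr-miR399b passed in 13, ath-miR399b in 11, mtr-MIR399j-p5_1ss15TC in 8, zma-miR399e-5p in 6 and mtr-MIR399j-p5_1ss8GA in 2. For miR395 the numbers were 6 for mtr-miR395a_L-1R+1, 6 for mtr-MIR395g-p5_1ss13CT and 0 for mtr-MIR395o-p5. Over all sequences and pairs 26.9% passed.

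The arms of the miR399j/r precursors were in different proportion in the libraries of different organs. Only reads of these 2 sequences enter the share, so scaling between libraries does not touch it. mtr-MIR399j-p5_1ss15TC made up 39.1% (9 of 23 reads) and 51.1% (68 of 133) of both arms in the 2 flower libraries, 0, 58.6 and 45.8% (of 9, 29 and 24 reads) in flower buds, and 0 and 50.0% (of 8 and 16 reads) in young pods 1 and 2. It made up 91.1, 100 and 100% (of 56, 17 and 14 reads) in mature leaves and 81.4, 72.9 and 84.7% (of 113, 181 and 235 reads) in stem. Young pods 3, shoots and roots had no read of either arm. All 7 flower, bud and pod libraries were under all 6 leaf and stem libraries.

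The share averaged 35.0 ± 24.6% in flower, bud and pod libraries (SD, n = 7) and 88.3 ± 10.8% in leaf and stem libraries (n = 6), with p = 5.83e-04 in a two-sided exact permutation test over libraries and 0.00233 adjusted over 4 shares compared. With at least 10 reads required it averaged 48.9 ± 7.17% (n = 5) and 88.3 ± 10.8% (n = 6), with exact p = 0.00216 and 0.00866 adjusted. A listed 0 can hide reads, so each arm at 0 was also set to 5 reads, which gave 35.7 to 58.6% in flower, bud and pod libraries and 72.9 to 91.1% in leaf and stem libraries (exact p = 5.83e-04). These tissues were joined, and this share chosen, after the values were seen. Each exact p here is the smallest the test can give for its number of libraries, so it restates the lack of overlap and carries no further weight. Libraries of 1 tissue are not separate tissues, and over tissue means, 3 against 2, no exact p can be under 0.10.

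**Figure D3:**
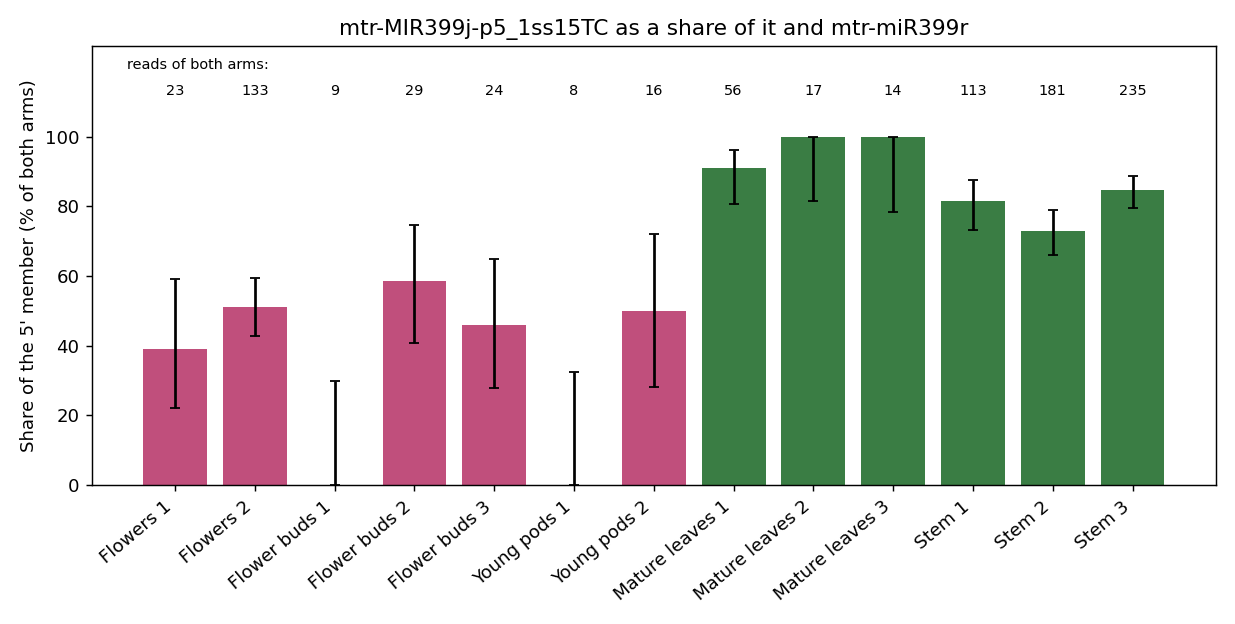
Share of mtr-MIR399j-p5_1ss15TC (5′ arm) in the reads of it and mtr-miR399r (3′ arm), in percent, by library, for flower, bud and pod libraries (pink) and leaf and stem libraries (green). Lines are 95% Wilson intervals, which cover counting error only, and the numbers above are the reads of both arms. The pink bars reach at most 58.6% and the green bars are at least 72.9%.

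The whole 5′ arm of miR399 differed in the same direction, but mtr-MIR399j-p5_1ss15TC gave 618 of its 1006 reads, so this is not a separate result. It was at 11.4 ± 13.1% of miR399 reads in flower, bud and pod libraries (n = 8). In leaf and stem libraries it was at 29.7 ± 11.2% (n = 6). The exact permutation test over libraries gave p = 0.0190 and 0.0380 adjusted, and again no exact p over tissue means can be under 0.10. Here the libraries overlapped, since flower buds 2 and 3 were at 30.7 and 30.8%. The share of mtr-miR399b in both b forms was 37.3 ± 10.4% in flower, bud and pod libraries (n = 8) and 38.7 ± 10.2% in leaf and stem libraries (n = 6, exact p = 0.810). For the 5′ arm of miR395 it was 34.2 ± 31.7% (n = 8) in flower, bud and pod libraries and 27.4 ± 32.0% (n = 4) in leaf and stem libraries (exact p = 0.739). With at least 10 reads required the order turned, to 24.8 ± 18.5% (n = 7) in flower, bud and pod libraries and 36.6 ± 32.2% (n = 3) in leaf and stem libraries (exact p = 0.475). The few reads of miR395 in leaves and stem limit that comparison.

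miR395 was highest in flowers, with less in flower buds, and was listed at 0 in every shoot and root library. The family sum was 0, 10.2 and 34.4 CPM in stem, 410 and 419 CPM in flowers, 45.7, 20.8 and 26.3 CPM in young pods, 351, 74.6 and 88.4 CPM in flower buds, and 163, 28.2 and 0 CPM in mature leaves. Both flower libraries exceeded every other library, and the tissue next to them, flower buds, was high in flower buds 1 only. Means were 14.9 ± 17.7 CPM in stem, 415 ± 6.55 CPM in flowers (n = 2), 30.9 ± 13.1 CPM in young pods, 171 ± 156 CPM in the flower buds, and 63.7 ± 87.0 CPM in mature leaves (SD, n = 3 unless given). These levels keep 1 entry of each sequence, and 6 of the 9 members share reads among entries. Means were also taken with all entries summed, still scaled to the library totals of kept entries, which makes them somewhat too high. They were 25.7 ± 28.8 CPM in stem, 617 ± 13.7 CPM in flowers, 52.2 ± 34.5 CPM in young pods, 278 ± 269 CPM for flower buds and 91.6 ± 113 CPM in mature leaves, in the same order. Without flower buds 1 the bud mean was 81.5 CPM, and without mature leaves 1 the leaf mean was 14.1 CPM.

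miR395 in stem was under that in flowers by a log2 fold change of -4.62 (adjusted p = 0.00700), as were 25.9% of families. It was under that in flower buds by -3.33 (adjusted p = 0.0130), as were 22.2% of families, or -2.28 (adjusted p = 0.0842) without flower buds 1 and -3.07 (adjusted p = 0.0613) without stem 2. Flowers exceeded young pods by 3.71 (adjusted p = 0.0222; 14.8% of families were higher in flowers), but this call was lost without flowers 1 (adjusted p = 0.0811), flowers 2 (0.10), young pods 1 (0.0516) or young pods 2 (0.0797). Flowers over flower buds, at 1.30 ± 1.03 (adjusted p = 0.372), did not pass. Flowers over mature leaves, at 2.50 ± 1.08 (adjusted p = 0.0755), did not pass either, but did in 18 of 50 alternatives, and without mature leaves 1 it was 4.71 (adjusted p = 0.0184). The other called pairs set flowers, flower buds, mature leaves and young pods above shoots or roots, where every member was listed at 0. In the order of means, no neighbouring tissues passed the threshold, although both flower libraries lay above every flower bud library.

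**Figure D4:**
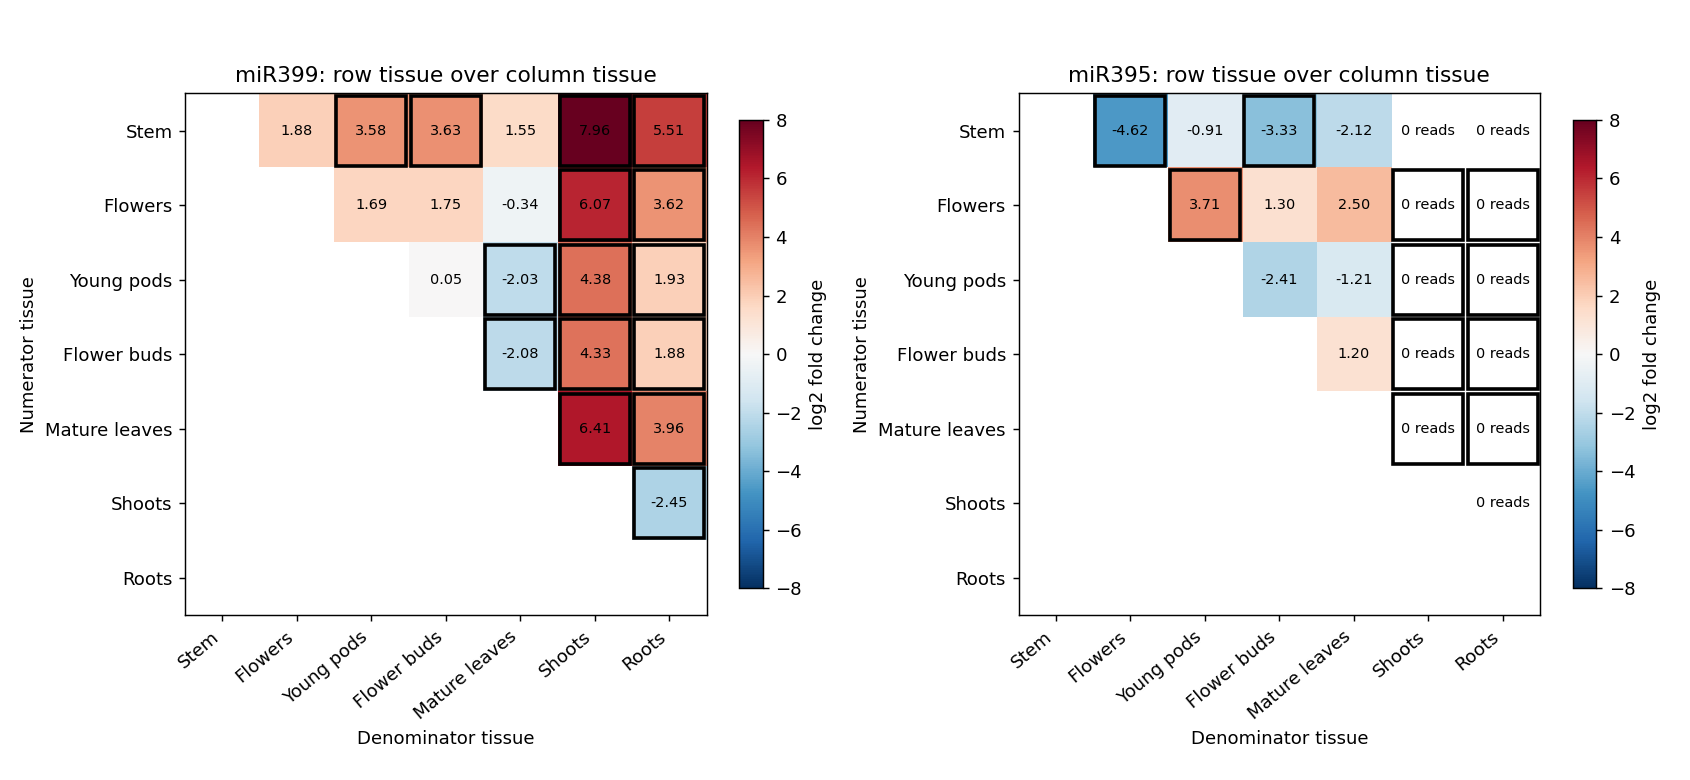
Log2 fold changes of the family sums for all 21 pairs of tissues, row tissue over column tissue, for miR399 (left) and miR395 (right), red where the row tissue is higher and blue where it is lower. Heavy frames mark pairs past the threshold, 15 for miR399 and 11 for miR395. Pairs marked 0 reads have no fold change because a tissue is at 0 in every library. The miR399 stem row is above 0 against every tissue, whereas the miR395 stem row is under 0 wherever a value is given.

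mtr-miR395a_L-1R+1 carried 49.0% of the 1346 reads of miR395. It had 0, 10.2 and 6.88 CPM in stem, 152 and 124 CPM in flowers, 45.7, 20.8 and 0 CPM in young pods, 237, 31.7 and 38.2 CPM in flower buds, and 55.5, 28.2 and 0 CPM in mature leaves. Flower buds 1 thus held its highest level, above both flower libraries. Reads of this sequence were split evenly between 2 entries of the table, of which 1 is kept in these levels, and with both summed flowers 2 had 310 reads in place of 155. Against 5 reads per library it was at least 4.39-fold higher in flowers than in shoots and at least 3.93-fold higher in flowers than in roots.

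The 5′-arm member mtr-MIR395g-p5_1ss13CT had 134 and 146 CPM in flowers, 56.9, 29.4 and 19.1 CPM in flower buds and 10.3 CPM in stem 3, and was at 0 in every other library. Its flower and bud ranges did not overlap. It was at least 8.09-fold higher in flowers than in young pods and at least 3.33-fold higher in flowers than in mature leaves. mtr-MIR395o-p5, with the same seed, had 67.1 and 45.0 CPM in flowers, 0, 0 and 26.3 CPM in young pods, 56.9, 13.6 and 14.3 CPM in flower buds, and 107, 0 and 0 CPM in mature leaves. Its highest level was in mature leaves 1, from 29 reads, in a library whose mtr-MIR395g-p5_1ss13CT was at 0. mtr-MIR395l-p5 reached 28.3 and 24.9 CPM in flowers and was also listed in flower buds 3 and stem 3.

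The minor 3′-arm forms of miR395, which differ in start, end or last base, were read mostly in flowers. ath-miR395a_L-1R+1 was listed in flowers 1 and 2 alone, with 9 and 83 reads over both entries. ath-miR395a_L-1R-1 was listed in both flower libraries, flower buds 3 and stem 3. mtr-miR395a_L-1R+2, bdi-miR395a_L+1 and ath-miR395a_L-1R-2 were listed in flowers 2 alone, with 24, 21 and 13 reads. That library had the highest total of kept miRNA entries, 997119 reads. With all entries summed and the same scaling to kept entries, their levels in it were 19.3, 16.9 and 10.4 CPM. In flowers 1, 5 reads were 17.7 CPM, close to or above these levels, and in roots 26.8 to 40.4 CPM. Their 0 in those libraries therefore bounds little, and their 0 elsewhere was not tested against library total.

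Other nutrient families were looked up from a list of 8: miR827, miR2111 and miR778 of phosphate, and miR397, miR398, miR408, miR857 and miR2119 of copper. miR397, miR398, miR408 and miR2119 were tested and all 4 were called over the 7 tissues, against 85.2% of all families. miR2111, which phosphate shortage induces in Arabidopsis, averaged 18.2 ± 4.20 CPM in flowers (n = 2) and 10.3 ± 9.20 CPM in young pods (n = 3), was at 0 in the other 5 tissues, and did not pass the filter. miR827, miR778 and miR857 had 0 entries by name and so were not analysed here. miR2119, which in legumes targets an alcohol dehydrogenase, averaged 608 ± 463 CPM in stem, 1448 ± 1488 CPM in young pods, 1468 ± 1533 CPM in mature leaves, 7.83 ± 13.6 CPM in shoots and 0 in roots (SD, n = 3).

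The families most like miR399 over the 20 libraries, by Pearson's r of log2(CPM + 1), were miR2119 (0.82), miR530 (0.77) and miR391 (0.74). miR530 was also highest in stem, at 1058 CPM on average. For miR395 they were miR391 (0.80), miR398 (0.74) and miR2119 (0.72), and each of these was highest in mature leaves, not flowers. The r between miR399 and miR395 was 0.53, which placed miR395 at rank 7 of 53 families for miR399 and miR399 at rank 8 of 53 for miR395. Points share a library total and a tissue, and low levels in roots and shoots enter every one of these values.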

How the data were processed

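Small RNA libraries were made with a TruSeq kit from total RNA of pooled samples, per the labels' protocols. Trimming, aligner, caller and build are not given here. In the deposited table each library has a raw and a normalized column, per the file headers. Raw values are expected counts, that is, estimated reads per entry from the authors. Normalized values are the authors' signal, equal to the raw value times a constant for each library, and only those constants served, as an alternative scaling. Of member values above 0, 67.1% were whole to a tolerance of 0.01 in single entries and 93.4% once entries of a sequence were summed, so the authors shared reads among entries; 7 empty lines were left out.

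Entries with the same sequence were collapsed to the one with the highest total, which holds only its part of shared reads. Counts were rounded, with ties rounded up. Features were filtered with filterByExpr by tissue, scaled by TMM (factors 0.509 to 1.70) and tested with edgeR's quasi-likelihood F-test (edgeR 4.0.16, R 4.3.3) on the 20 libraries, modelled by tissue alone, for 54 family sums and 323 features, with Benjamini-Hochberg adjustment within each comparison. Features with the same counts throughout entered a family sum once. Each SE is the log2 fold change divided by the t value that its p-value implies, so it adds nothing to that p-value. Where a tissue was at 0 in every library no fitted fold change is given. A bound there is the mean CPM of the other tissue over the mean CPM of 5 reads per library. It covers neither counting error nor the spread among libraries. DESeq2 1.42.0 was an alternative. Shares use all entries summed, with 95% Wilson intervals (scipy 1.17.1), which cover counting error only. Precursors were folded with RNAfold 2.7.2. The fits were tested on simulated data. All members are named; of other families the text names the 8 of the nutrient list and the 3 most like each family. The members, lists and tests were chosen with earlier results of these data known.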

Additional observations from a re-analysis of the deposited data

How the results depend on the processing

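Of 10 main results, 7 were scored as unchanged in all 50 alternatives run. These were both tests over the 7 tissues, miR399 in stem over roots, the 4 nutrient families and 3 results of another kind. miR395 in flowers over flower buds was unchanged in that it never passed. Both counts of pairs have no threshold, and ran from 11 to 19 for miR399 (15 in the main fit) and from 8 to 13 for miR395 (11 in the main fit). The number of members called was 5 with DESeq2, against 8. miR399 in stem over mature leaves passed with library size alone (1.74), DESeq2 (1.63) and, chosen after seeing the data, TMM with singleton pairing (1.73). miR395 in flowers over mature leaves passed with DESeq2 size factors in edgeR (2.93), library size alone (3.47), the replicate block (2.94), TMM with singleton pairing (3.15) and TMM averaged over all reference libraries (2.97).

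Leaving out 1 library with TMM re-estimated changed the library edgeR scales against, so the factors of all libraries were kept instead, and the re-estimated fits were added, both after seeing the data. Over these 40 fits miR399 in stem over mature leaves ran from 1.33 to 2.22, past the threshold in 11 of 20 re-estimated fits and 0 of 20 others, and miR395 in flowers over mature leaves from 2.02 to 4.71, past it in 12 and 1.

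Other pairs that did not pass changed sign, and the cause was not tested. miR399 in flowers over mature leaves (-0.34) was 0.34 with library size alone, 0.21 with singleton pairing and 0.095 with averaged TMM, and ran from -0.61 to 0.82 with 1 library left out. miR399 in young pods over flower buds was -0.17 with the authors' factors and ran from -0.42 to 0.42 with 1 library left out. With 1 library left out, miR395 in stem over mature leaves ran from -3.48 to 0.10 and in young pods over mature leaves from -1.69 to 1.13, with values above 0 only without mature leaves 1. The calls of mtr-MIR395o-p5 and mtr-MIR399j-p5_1ss8GA were lost in 26 of 50 and in 7 of the 34 alternatives in which each was tested. Same-numbered libraries of different tissues correlated at -0.24 to 0.28 (median 0.028) in their deviations from tissue means. Libraries of different number correlated at -0.28 to 0.25 (median -0.011). With 2 or 3 libraries in a tissue, these values cannot tell whether the numbers pair samples. The block moved no other main result across its threshold. The read limit weighs most in mature leaves, shoots and roots, where 5 reads reach 60.8, 44.1 and 40.4 CPM.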
